A study of Caenorhabditis elegans with 12 samples.

Results

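Oligo-dT and random-hexamer priming were compared gene by gene in XX females of the Caenorhabditis elegans fog-2(q71) strain, on libraries made from the same RNA samples. Genes were taken when both deposited gene tables marked them as tested and the fog-2 value was above 0 with either primer, which gave 8616 of 39665 genes. The measure, called the priming ratio here, is the log2 of oligo-dT FPKM over hexamer FPKM (fragments scaled to the length of the gene model and to the number of mapped fragments). It was centred on the median of the 8616 genes, which was 0.55 before centring, so a positive ratio means that a gene was higher with oligo-dT than the typical gene was.

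The study's stated question was whether fog-2 activity affects polyadenylation. Its 12 libraries form 4 groups of 3. The fog-2 oligo-dT and fog-2 hexamer groups came from whole adult XX females of strain JK574, homozygous for fog-2(q71). The N2 oligo-dT and N2 hexamer groups came from whole adult XX hermaphrodites of the wild type. All animals were grown at 20 °C on OP50 bacteria. Groups follow the sample titles, and each genotype was taken as 1 strain. The labels of some N2 samples name another strain, however. For 1 N2 hexamer sample, label and title differ on the primer. The F-box protein FOG-2 binds the translational repressor GLD-1 and is needed in the hermaphrodite germline to make sperm, so XX animals without it make oocytes alone.

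Oligo-dT anneals to the poly(A) tail at the 3' end of an RNA, and copying runs from there toward the 5' end. Random hexamers anneal all along an RNA and need no tail. Most mRNAs carry a tail, whereas replication-dependent histone mRNAs of animals end in a stem-loop, and ribosomal, spliceosomal and nucleolar RNAs are also made without a stable tail. In the germline, tails of stored mRNAs are shortened and lengthened in the cytoplasm to control translation.

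The authors gave a pooled FPKM for the 3 libraries of a group, so no spread between libraries and no depth can be given, and the primers were compared by size with no test. FPKM ranged widely in fog-2, with a median of 34.8 with oligo-dT and 29.4 with hexamers. Oocyte and eggshell markers lay between 191 and 2280 FPKM with oligo-dT in fog-2 (13 genes), and the 4 male somatic markers lay at or below 0.394 FPKM. The 54 sperm markers summed to 97.0 FPKM in fog-2 against 263 FPKM in N2 with oligo-dT, and to 56.99 FPKM in fog-2 against 124 FPKM in N2 with hexamers, and in whole animals fewer cells of a type and less RNA per cell cannot be told apart. The gene fog-2 itself had 14.4 FPKM in fog-2 females against 64.2 FPKM in N2 with oligo-dT, and 7.08 FPKM in fog-2 females against 34.9 FPKM in N2 with hexamers. Its priming ratio was 0.47 in fog-2 and 0.29 in N2. Reads of fog-2 may be shared with its close paralog, so these levels are uncertain.

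The gene models behind the FPKM bear on every ratio below. Of 6148 mRNAs alone in their locus, 5575 (90.7%) had a locus exactly as long as the coding region of the gene in the WBcel235 annotation, introns included, and 83 (1.35%) had a locus as long as the whole annotated gene. The locus was shorter than the annotated gene by a median of 213 bases. The deposited values of most mRNAs thus belong to models as long as the coding region, without the annotated untranslated regions (UTRs). All lengths given below are from that annotation, for the longest transcript of a gene. Reads over a UTR outside the model could not be counted apart here, and their part in the ratios was not tested.

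The spread of the ratio was lopsided. At least 4-fold from the median, 642 genes (7.45%) were lower with oligo-dT and 20 genes (0.232%) were higher. With at least 10 FPKM with both primers these counts were 145 (2.52%) and 2 (0.0348%), and without centring 504 (5.85%) and 65 (0.754%). With any status other than too much or failed data they were 1173 (7.77%) and 249 (1.65%). As reported, at least 2-fold from the median, 1352 genes (15.7%) were lower and 254 (2.95%) were higher. The middle of the distribution was narrow, with quartiles at -0.58 and 0.39, while the extremes reached -12.50 and 3.56. The smallest oligo-dT value inside the rule was that of Y46H3C.7, at 0.0681 FPKM with oligo-dT and 20.3 FPKM with hexamers. The gene just outside it with the highest hexamer value was the snoRNA gene Y37E3.20, at 222 FPKM with hexamers and listed at 0 with oligo-dT.

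**Figure D1:**
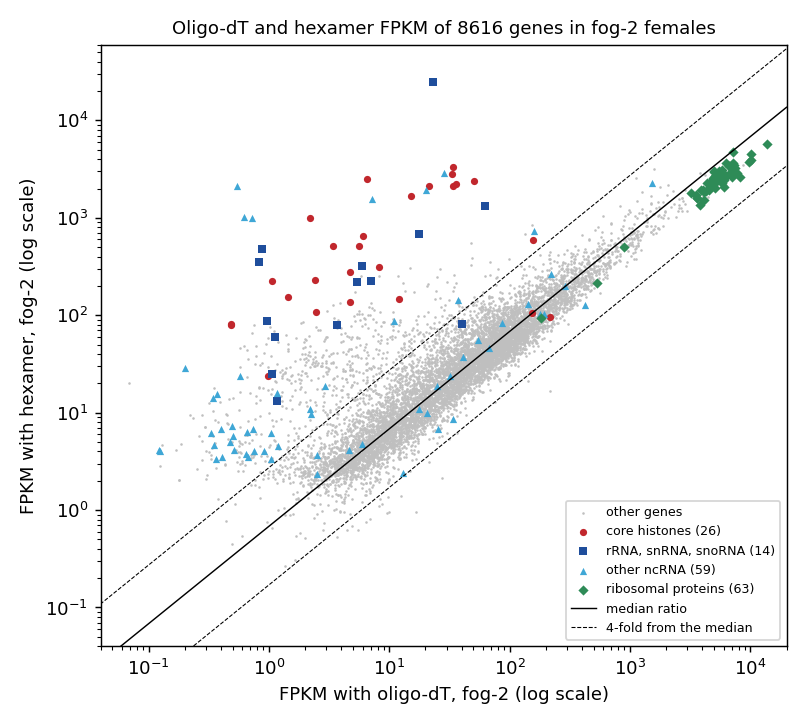
FPKM of each of the 8616 genes in fog-2 with oligo-dT (horizontal, log scale) and with hexamers (vertical, log scale). The solid line is the median ratio and the dashed lines are 4-fold from it. Of the 26 core histone genes 24 lie beyond the upper dashed line, and the 63 ribosomal protein genes lie between the lines.

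Core histone genes stood at the low end. These genes encode the H2A, H2B, H3 and H4 proteins that package newly replicated DNA. The files name 54 of them, of which 26 met the rule, 21 were untested with either primer, 4 were tested with hexamers alone, 1 with oligo-dT alone, and 2 were marked as having too little data. The 26 had oligo-dT levels of 0.482 to 217 FPKM with a median of 6.26, against hexamer levels of 24.05 to 3326 FPKM with a median of 410. Their median ratio was -7.01, a 129-fold difference from the median gene, and 24 of 26 were at least 4-fold lower with oligo-dT, against 7.45% of all genes. In N2 the median ratio of the same genes was -6.76.

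All 4 kinds of core histone shared this. By coding length without the stop codon, 9 genes were H4 (309 nt, median ratio -6.51), 6 were H2B (369 nt, -7.19), 4 were H2A (381 nt, -6.47) and 6 were H3 (408 nt, -7.01), while his-58 had no length in the annotation. Among H4 genes, his-64 had 6.51 FPKM with oligo-dT against 2520 FPKM with hexamers, and his-1 had 2.19 FPKM with oligo-dT against 989 FPKM with hexamers. Among H2B genes, his-62 had 33.6 FPKM with oligo-dT against 3326 FPKM with hexamers, and among H3 genes his-63 had 15.01 FPKM with oligo-dT against 1670 FPKM with hexamers. Copies of a histone gene are nearly identical, so the split of reads among them is uncertain. As an instance, his-66 and his-58 both had 0.482 FPKM with oligo-dT, against 80.6 and 78.6 FPKM with hexamers. The 21 core histone genes alone in their locus had a median ratio of -6.97.

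The 2 core histone genes outside the 4-fold range were his-41, an H2B gene, and his-37, an H4 gene. his-41 (chromosome V, 9545555 to 9546140 in the files' coordinates, counted from 1 and with the build not stated in any source used here) had 153 FPKM with oligo-dT against 105 FPKM with hexamers, a ratio of -0.01. his-37 (chromosome V, 9547110 to 9547495) had 217 FPKM with oligo-dT against 95.2 FPKM with hexamers, a ratio of 0.64. In N2 their ratios were 0.21 for his-41 and 0.37 for his-37. Both carry 2 exons and an annotated 3' UTR, of 100 nt in his-41 and 88 nt in his-37, whereas the other core histone genes with a length had none annotated. All 20 core histone genes alone in their locus and with a length had a locus as long as their coding region, and for 18 of them this was the whole annotated gene. The next highest ratio was that of his-68, an H2A gene named here after its values were seen, at -2.46 with 157 FPKM with oligo-dT against 590.5 FPKM with hexamers.

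Replacement and linker histones, which are made outside DNA replication or bind the DNA between nucleosomes, did not share the core histones' values. Of 18 named in the files 13 met the rule, with a median ratio of 0.21 in fog-2 and 0.11 in N2. None was at least 4-fold lower with oligo-dT, against 24 of 26 core histone genes and 7.45% of all genes. The replacement H3 gene his-71 had 39.3 FPKM with oligo-dT against 21.3 FPKM with hexamers (ratio 0.33), and the linker histone gene hil-4 had 616 FPKM with oligo-dT against 323 FPKM with hexamers (0.38). At the low end, his-74 had 539 FPKM with oligo-dT against 553 FPKM with hexamers (-0.59), and hil-7 had 10.1 FPKM with oligo-dT against 18.7 FPKM with hexamers (-1.45).

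**Figure D2:**
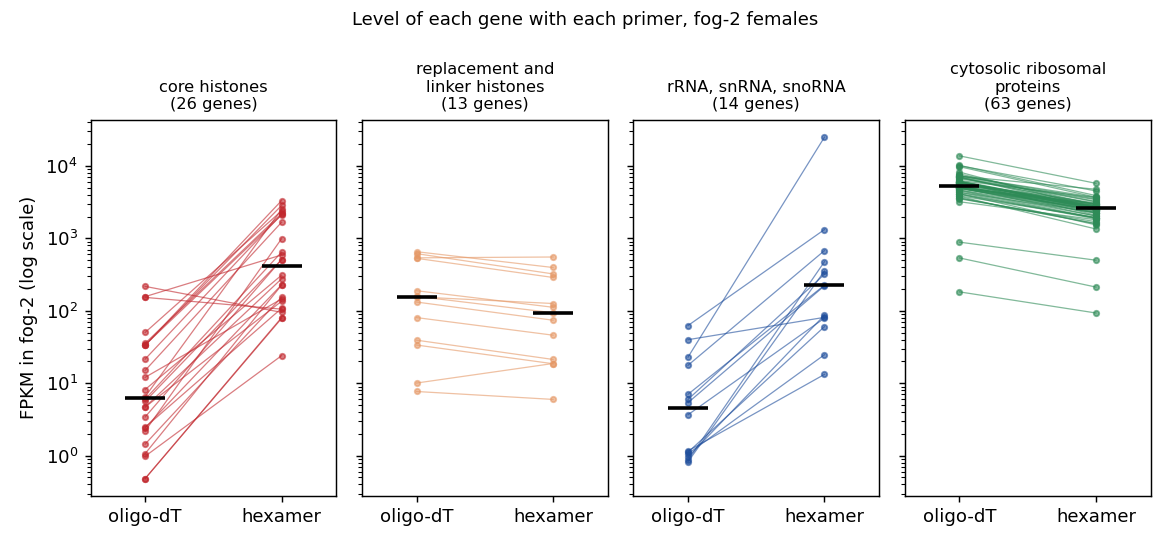
FPKM in fog-2 (log scale) of every gene of 4 groups with oligo-dT (left) and hexamers (right). Each line is 1 gene and each black bar the median over genes. Core histones had medians of 6.26 with oligo-dT and 410 with hexamers, and ribosomal protein genes were higher with oligo-dT in every line shown.

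Structural RNAs of the translation and splicing machinery were low with oligo-dT as well. The 14 genes annotated as rRNA, snRNA or snoRNA had a median ratio of -5.86. Of them 13 were at least 4-fold lower (92.9%, against 7.45% of all genes). The ribosomal RNA gene rrn-2.1 had 22.9 FPKM with oligo-dT against 25019 FPKM with hexamers, the highest hexamer value of all members, and its ratio was -10.64. The snRNAs are the RNA components of the spliceosome. Among them sup-6 had 62.6 FPKM with oligo-dT against 1325 FPKM with hexamers, F08H9.10 had 17.7 FPKM with oligo-dT against 678 FPKM with hexamers, and sup-39 had 7.04 FPKM with oligo-dT against 226 FPKM with hexamers. The snoRNAs guide chemical changes of other RNAs. The 7 of them ran from -9.65 to -1.58, with F46F11.12 at 0.868 FPKM with oligo-dT against 477 FPKM with hexamers and Y23H5B.10 at 0.824 FPKM with oligo-dT against 355 FPKM with hexamers.

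Other RNAs annotated as noncoding were split. Of 59, 37 were at least 4-fold lower with oligo-dT (62.7%, against 7.45% of all genes) and the median ratio was -2.93. The 47 of them with a ratio in N2 had a median of -0.85 there, and their median difference, fog-2 minus N2, was -0.45. The lowest ratio of all 8616 genes, -12.50, was that of R144.15, with 0.538 FPKM with oligo-dT against 2131 FPKM with hexamers. It is 1 of 3 models in its locus, and its ratio in N2 was -8.20. mrpr-1 had 0.721 FPKM with oligo-dT against 990 FPKM with hexamers, and T27A10.8 had 28.2 FPKM with oligo-dT against 2920 FPKM with hexamers. At the other end tts-1, a long noncoding RNA named here after its values were seen, had 420 FPKM with oligo-dT against 129 FPKM with hexamers, a ratio of 1.16. The 62 pseudogenes had a median ratio of -0.04 and 1 of them was at least 4-fold lower (1.61%). The 210 members with no class had a median ratio of -0.62, and 58 were at least 4-fold lower (27.6%).

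Among mRNAs the ratio was lower the longer the transcript was. Over 8235 mRNAs other than core histones, Spearman's rho between the ratio and transcript length was -0.68 (-0.71 in N2), a description across genes that share libraries. The median ratio was 0.54 for transcripts up to 500 nt, 0.20 between 1000 and 1500 nt, -0.50 between 2000 and 3000 nt, -1.20 between 4000 and 6000 nt, and -2.15 above 10000 nt (39 genes). The share at least 4-fold lower with oligo-dT was 1.42% up to 500 nt and 59.0% above 10000 nt. Quartiles of neighbouring length classes overlapped throughout.

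The annotated 3' UTR and the coding region each went with the ratio, with rho of -0.59 (7980 mRNAs with a 3' UTR) and -0.58 (8168 mRNAs with a coding length). The median ratio was 0.37 for 3' UTRs up to 100 nt, -0.12 between 200 and 300 nt, -1.17 between 500 and 1000 nt and -1.91 above 1000 nt. Within mRNAs of like coding length the median was also lower with longer 3' UTRs, except between the first and second class of 3' UTR for coding regions above 3000 nt. For coding regions of 1000 to 1500 nt the median ratio was 0.29 with 3' UTRs up to 100 nt (521 mRNAs), -0.38 between 300 and 500 nt (289 mRNAs) and -2.68 above 1000 nt (58 mRNAs). In the last of these classes 58.6% were at least 4-fold lower, against 0.192% in the first. For coding regions of 2000 to 3000 nt the median ratio was -0.19 with 3' UTRs up to 100 nt (117 mRNAs) and -3.39 above 1000 nt (42 mRNAs). For coding regions up to 500 nt the medians lay closer together. They were 0.61 with 3' UTRs up to 100 nt (434 mRNAs) and -0.39 above 1000 nt (41 mRNAs). That class also takes in genes whose longest transcript carries only a short part of the gene's coding region. In spe-39 that transcript has 252 coding nt and a 3' UTR of 1591 nt. Yet the coding region of spe-39 spans 2090 of the gene's 2414 bases. The part of such genes in the medians was not tested. Over 5430 mRNAs alone in their locus whose model was as long as the coding region, rho with the 3' UTR was -0.58.

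**Figure D3:**
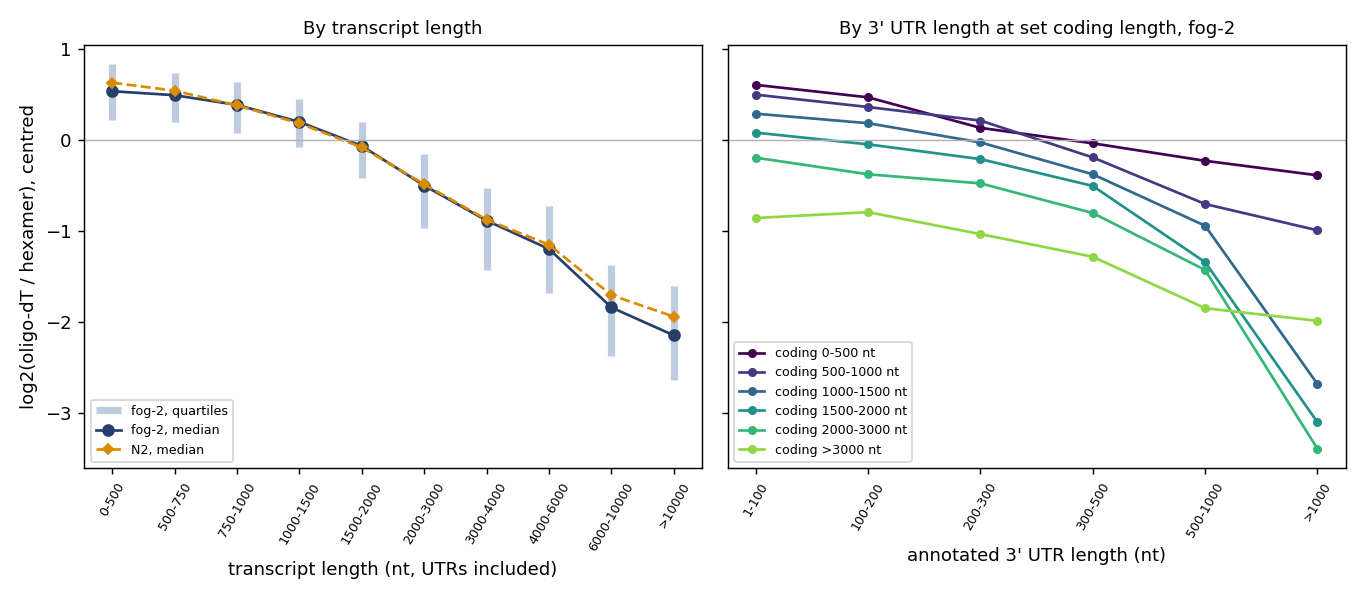
Median centred log2 ratio of mRNAs other than core histones, by transcript length in fog-2 and N2 (left, bars are quartiles in fog-2) and by annotated 3' UTR length within classes of coding length in fog-2 (right). Medians run from 0.54 for the shortest to -2.15 for the longest transcripts, and reach -3.39 for coding regions of 2000 to 3000 nt with 3' UTRs above 1000 nt.

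The 506 mRNAs at least 4-fold lower with oligo-dT had a median length of 2682.5 nt and a median 3' UTR of 633 nt, and over all 8235 mRNAs the median length was 1447 nt. Their median level was 3.60 FPKM with oligo-dT against 32.7 FPKM with hexamers, and 72.1% were longer than 2000 nt. Of them 60.9% were alone in their locus, against 74.7% of all mRNAs. Of the 308 alone in their locus, 78.2% had a model as long as the coding region, and the locus was shorter than the annotated gene by a median of 746.5 bases, against 213 bases in all mRNAs alone in their locus. The 247 mRNAs at least 2-fold higher with oligo-dT were short, with a median length of 631 nt and a median 3' UTR of 84 nt, and 83.8% were no longer than 1000 nt.

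Genes for the cytoplasmic control of poly(A) tails had low ratios themselves. This list holds the poly(A)-binding proteins, the CCR4-NOT deadenylase and the cytoplasmic poly(A) polymerases. Of 14 members 5 were at least 4-fold lower with oligo-dT (7.45% of all genes), 10 were at least 2-fold lower (15.7% of all genes), and the median ratio was -1.42 in fog-2 and -1.46 in N2. ccr-4, a catalytic deadenylase subunit, had 5.86 FPKM with oligo-dT against 250 FPKM with hexamers, a ratio of -5.97. let-711, the scaffold of the same complex, had 5.20 FPKM with oligo-dT against 173 FPKM with hexamers (-5.61). gld-4 (chromosome I, 9118108 to 9121754), a cytoplasmic poly(A) polymerase named here after its values were seen, had 8.26 FPKM with oligo-dT against 250 FPKM with hexamers (-5.47). The locus of gld-4 spans 3647 bases in the files, as does its annotated coding region, and the annotated gene spans 5067 bases with a 3' UTR of 1420 nt. At the high end of the list pab-1, a poly(A)-binding protein, had 991 FPKM with oligo-dT against 1204 FPKM with hexamers (-0.83), and ntl-2, another CCR4-NOT subunit, had 114 FPKM with oligo-dT against 76.2 FPKM with hexamers (0.03). These are long mRNAs, with a median length of 3547.5 nt and a median 3' UTR of 675.5 nt. Set against mRNAs of the same length class the median was -0.68 with 13 of 14 below it, and within classes of both length and 3' UTR it was -0.31.

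Genes for cleavage and polyadenylation in the nucleus, where the tail is first added, lay near the middle. Their 13 members had a median ratio of -0.09. None was at least 4-fold lower, and with 7.45% over all genes nothing is read from that in a list this short. pcf-11, a cleavage factor, was lowest at -1.53 with 47.4 FPKM with oligo-dT against 93.5 FPKM with hexamers. cpsf-2, a subunit of the cleavage complex, was highest at 0.39 with 71.2 FPKM with oligo-dT against 37.1 FPKM with hexamers. cdl-1, the protein that binds the histone stem-loop, had 270 FPKM with oligo-dT against 237 FPKM with hexamers (-0.37).

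Germline regulators of translation were low too. Of 24 members, 5 were at least 4-fold lower with oligo-dT (20.8%, against 7.45% of all genes) and 10 at least 2-fold lower (41.7%, against 15.7%), with a median ratio of -0.82 in fog-2 and -0.78 in N2. lin-41, which keeps oocytes from differentiating too early, had 11.8 FPKM with oligo-dT against 255 FPKM with hexamers (-4.99). larp-1, a La-related RNA-binding protein, had 14.96 FPKM with oligo-dT against 307 FPKM with hexamers (-4.91). gld-1, the partner of FOG-2 and named here after its values were seen, had 155 FPKM with oligo-dT against 850 FPKM with hexamers (-3.01). The locus of gld-1 spans 1715 bases in the files, and the annotated gene spans 2542 bases. At the other end were the PUF protein genes fbf-2, with 27.3 FPKM with oligo-dT against 17.4 FPKM with hexamers (0.10), and puf-12, with 93.4 FPKM with oligo-dT against 59.0 FPKM with hexamers (0.11). Against mRNAs of the same length class 21 of 24 were below the median, by a median of 0.80 on the log2 scale, and within classes of both length and 3' UTR the median was -0.36.

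Medians of 3 other germline lists lay between -0.72 and -0.64, with no test between lists. The 18 targets of GLD-1 had a median ratio of -0.67. Of them 1 was at least 4-fold lower (5.56%, against 7.45% of all genes), lin-41, which is shared with the regulators. For these targets the median was -0.64 against mRNAs of the same length class and -0.31 within classes of both length and 3' UTR. The 31 oocyte and eggshell genes had a median of -0.64. None was at least 4-fold lower, from which nothing is read with 7.45% over all genes. Against mRNAs of the same length class their median was -0.37, and within classes of both length and 3' UTR -0.31. The lowest oocyte gene was mex-5, a zinc-finger protein of the early embryo, with 601 FPKM with oligo-dT against 1050 FPKM with hexamers (-1.36). The 14 P granule genes had a median of -0.72, and against mRNAs of the same length class the median was -0.08 with 7 of 14 below. Within classes of both length and 3' UTR it was -0.25. The lowest P granule gene was the Argonaute gene csr-1, with 77.4 FPKM with oligo-dT against 244 FPKM with hexamers (-2.21). The helicase gene cgh-1 followed, with 1570 FPKM with oligo-dT against 3170 FPKM with hexamers (-1.57). The 26 meiosis genes had a median of -0.06, and against mRNAs of the same length class 4 of 25 were below the median and the list stood 0.32 above it. Among them the cohesin gene rec-8 had a ratio of -1.18 and the synapsis gene syp-2 a ratio of 0.70. The 20 germline cell cycle genes had a median of -0.45, with cdk-2 lowest at 1.97 FPKM with oligo-dT against 35.4 FPKM with hexamers (-4.72).

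Apart from core histones, the lowest median of an mRNA list was that of the giant proteins. The list holds extracellular matrix proteins and also intracellular ones, among them the 3 named here. Its 23 genes had a median ratio of -2.49, and 17 were at least 4-fold lower with oligo-dT (73.9%, against 7.45% of all genes). unc-70, a spectrin gene, had 1.04 FPKM with oligo-dT against 38.4 FPKM with hexamers (-5.75). unc-22, which encodes the giant muscle protein twitchin, had 1.06 FPKM with oligo-dT against 26.6 FPKM with hexamers (-5.20). unc-44, an ankyrin gene, was the highest of the list with 24.1 FPKM with oligo-dT against 30.5 FPKM with hexamers (-0.89). The median length of the list was 13422 nt, and against their own length class the median of its genes was -0.49. Most of its genes fall in the class above 10000 nt, which holds 39 mRNAs, so this value sets the list partly against itself. Among 22 muscle genes, which share unc-22 with that list, 6 were at least 4-fold lower (27.3%, against 7.45% of all genes). Their median was -0.78, and against mRNAs of the same length class it was -0.29. The short mlc-2, a myosin light chain gene, had 1167 FPKM with oligo-dT against 598 FPKM with hexamers (0.41).

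Genes of the ribosome were high with oligo-dT. The 63 cytosolic ribosomal protein genes had a median ratio of 0.57 in fog-2 and 0.74 in N2, all 63 were above the median gene, and 1 was at least 2-fold higher (2.95% of all genes). rla-1, an acidic stalk protein, had 8233 FPKM with oligo-dT against 2615 FPKM with hexamers (1.10), and rps-8 was lowest with 7248 FPKM with oligo-dT against 4764 FPKM with hexamers (0.05). These mRNAs are short, with a median length of 534 nt and a median 3' UTR of 54 nt, and against their own length class the median was 0.08. The 59 mitochondrial ribosomal protein genes had a median of 0.54, and 3 of them were at least 4-fold lower (5.08%, against 7.45% of all genes). mrpl-45 had 0.786 FPKM with oligo-dT against 38.2 FPKM with hexamers (-6.16), and mrps-31 had 1.53 FPKM with oligo-dT against 23.6 FPKM with hexamers (-4.49). Their annotated 3' UTRs are 1057 nt in mrpl-45 and 1006 nt in mrps-31, against a median of 111 nt in the list. Without centring, the median of the cytosolic ribosomal protein genes was 1.13.

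Other housekeeping lists had medians between -0.12 and 0.21. The 25 translation factor genes had a median of 0.13 and 2 at least 4-fold lower (8%, near the 7.45% of all genes), among them ifg-1, the eIF4G scaffold, with 24.4 FPKM with oligo-dT against 179 FPKM with hexamers (-3.43). The 48 chaperone genes had a median of -0.12 and 4 at least 4-fold lower (8.33%, also near that share), among them cct-3, a subunit of the cytosolic chaperonin, with 7.04 FPKM with oligo-dT against 133 FPKM with hexamers (-4.79). The 33 fatty acid genes had a median of 0.09 and 4 at least 4-fold lower (12.1%), with the elongase gene elo-3 lowest at 1.85 FPKM with oligo-dT against 82.4 FPKM with hexamers (-6.03). No member was at least 4-fold lower among 24 oxidative phosphorylation genes (median 0.21), 27 proteasome genes (0.15), 26 spliceosome protein genes (0.19) or 8 tubulin genes (0.06), and with lists this short and 7.45% over all genes nothing is read from these counts of 0.

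The remaining lists had medians between -0.43 and 0.89, apart from the yolk proteins. The 37 transthyretin-related genes, which encode small secreted proteins, had a median ratio of 0.64. The 39 F-box A genes, the relatives of fog-2, had a median of 0.33. The 36 of them with a length stood 0.24 above mRNAs of their length class, and 0.11 above within classes of both length and 3' UTR. The 52 neuropeptide genes had a median of 0.21, the 39 C-type lectin genes 0.20, the 15 intestinal protease and lipase genes 0.11 and the 88 nuclear hormone receptor genes -0.01. The 31 cuticle collagen genes had a median of -0.05, and against mRNAs of the same length class 29 of 31 were below the median, which stood at -0.31. The 3 body-shape collagen genes ran from -0.27 to 0.11. Of the yolk protein genes vit-1 alone met the rule, with 1126 FPKM with oligo-dT against 2594 FPKM with hexamers (-1.76). Of the sperm lists, 5 of 30 major sperm protein genes met the rule (median 0.89), as did 4 of 47 other sperm genes (median -0.43), and no male somatic marker did.

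**Figure D4:**
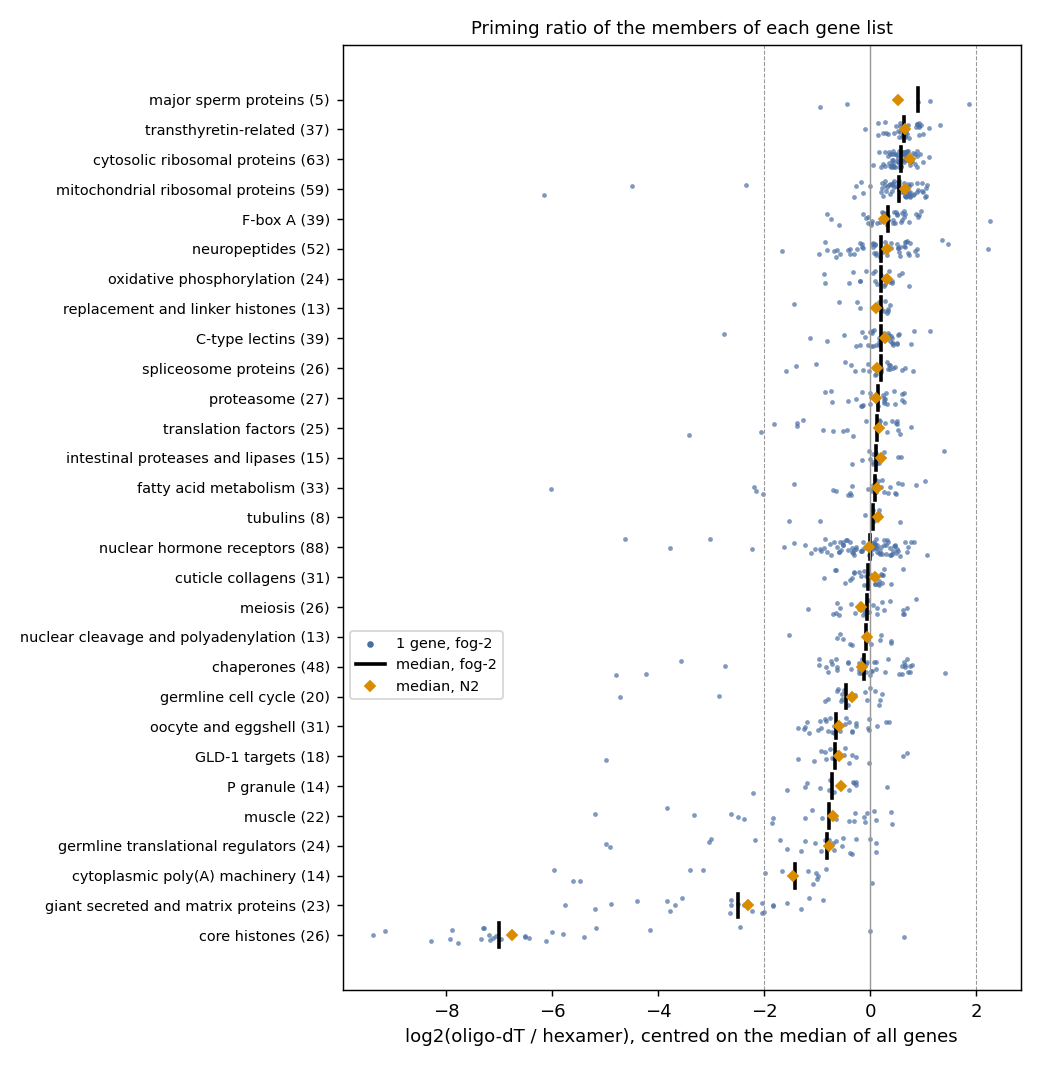
Centred log2 ratio of every member of each gene list with at least 5 members, with the median in fog-2 (black bar) and in N2 (diamond). Medians in fog-2 run from -7.01 for core histones to 0.89 for major sperm proteins, and dashed lines mark 4-fold from the median gene.

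The high end held short mRNAs at low levels. Among genes with a public name, alone in their locus and with at least 10 FPKM with either primer, the highest ratio was that of nlp-17, a neuropeptide-like gene, with 21.3 FPKM with oligo-dT against 3.11 FPKM with hexamers (2.22). The second was calm-1, a calcium-binding protein gene, with 16.7 FPKM with oligo-dT against 3.36 FPKM with hexamers (1.76). The third was nspc-7, with 27.2 FPKM with oligo-dT against 5.82 FPKM with hexamers (1.68). In N2 the ratio was 0.93 for nlp-17, 0.22 for calm-1 and 0.82 for nspc-7. The genes were chosen as the highest in fog-2, so nothing is read from their lower values in N2. Others among the 12 highest were the insulin-like gene ins-7, with 26.2 FPKM with oligo-dT against 6.77 FPKM with hexamers, the synaptobrevin gene snb-2 (1.38) and nlp-24 (1.35), the last with 303.8 FPKM with oligo-dT against 81.3 FPKM with hexamers. All 12 had transcripts of 376 to 683 nt.

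The ratio in N2 hermaphrodites is the same measure in libraries that the rule did not use, apart from the tested status, which both genotypes share. Over 8593 genes with a ratio in both genotypes, Pearson's r was 0.94 and Spearman's rho 0.88, given as a description across genes. Of 623 such genes at least 4-fold lower with oligo-dT in fog-2, 549 (88.1%) were so in N2, which is 97.9% of the 561 in N2 (6.53% of its genes). Of 254 genes at least 2-fold higher in fog-2, 52 (20.5%) were so in N2, which is 26.7% of its 195 (2.27%). None of the 20 genes at least 4-fold higher in fog-2 was among the 4 in N2 (0.0465%).

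**Figure D5:**
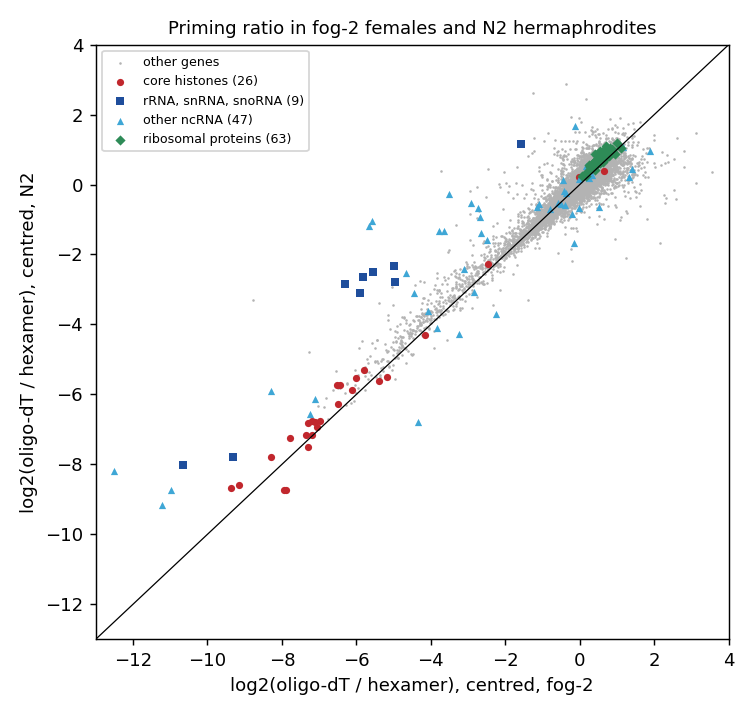
Centred log2 ratio of 8593 genes in fog-2 (horizontal) and N2 (vertical), with the line of equal ratios. Core histones lie along the line, and the 9 rRNA, snRNA and snoRNA genes with a ratio in both genotypes lie on the side of lower ratios in fog-2.

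The difference between genotypes bears on the question of the study. The ratio in fog-2 minus that in N2 had a median of -0.02 and a median absolute value of 0.15, and 88.8% of genes differed by less than 0.5 on the log2 scale. Among 5572 genes with at least 10 FPKM in all 4 groups, 96.5% differed by less than 0.5, 25 were at least 2-fold lower in fog-2 and 6 at least 2-fold higher. A two-sided normal test of the difference, on standard errors implied by the p-values in the authors' deposited tables, called 0 of 8593 genes (0%) at a Benjamini-Hochberg adjusted p of 0.05 or less. At an unadjusted p under 0.05 it found 136 genes (1.58%), 97 lower (1.13%) and 39 higher (0.454%) in fog-2. With standard errors from the deposited test statistic instead, 30 genes were called, 26 of them lower in fog-2, and with the implied errors all scaled by 1 factor of 0.641 there were 62, 48 of them lower. The count therefore rests on the standard error used. The labels describe 1 N2 hexamer sample as oligo-dT primed and give 2 N2 samples another strain name, and their part in the difference was not tested.

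The smallest p was that of the snRNA gene F08H9.10, which had 17.7 FPKM with oligo-dT and 678 FPKM with hexamers in fog-2, against 28.5 FPKM with oligo-dT and 118 FPKM with hexamers in N2. Its ratio in fog-2 minus that in N2 was -3.18 ± 0.77 on the log2 scale (implied SE). Y38C1AA.1, a protein-coding gene named, like F08H9.10 and sup-6, for its place among the 3 smallest p, had 31.4 FPKM with oligo-dT and 144 FPKM with hexamers in fog-2, against 34.3 FPKM with oligo-dT and 23.8 FPKM with hexamers in N2, a difference of -2.69 ± 0.67 in the ratio. The next was the snRNA gene sup-6, with 62.6 FPKM with oligo-dT and 1325 FPKM with hexamers in fog-2, against 79.7 FPKM with oligo-dT and 368 FPKM with hexamers in N2, a difference of -2.16 ± 0.57. The snoRNA gene Y23H5B.10 and the noncoding RNA gene C38C6.8 followed. For rrn-2.1, the sixth in this order, the values were 22.9 FPKM with oligo-dT and 25019 FPKM with hexamers in fog-2, against 25.9 FPKM with oligo-dT and 4431 FPKM with hexamers in N2, a difference of -2.63 ± 0.77. At the errors implied by the p-values none of these 6 genes passed the adjusted test. Y38C1AA.1 was among the 30 genes called with errors from the deposited test statistic. Scaling all errors by 1 factor keeps the order of p, so the 62 genes called then include these 6. In F08H9.10, sup-6 and rrn-2.1 the hexamer values differed more between genotypes than the oligo-dT values did. All 9 rRNA, snRNA and snoRNA genes with a ratio in both genotypes had a lower one in fog-2, against 4555 of 8593 genes (53.0%), with a median difference of -2.73 on the log2 scale. Of the 14 genes of these classes 2 were alone in their locus, and the part of overlapping genes was not tested. Of the 136 genes above, 6 were of these classes.

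Most of the cytosolic ribosomal protein genes, 60 of 63, had a lower ratio in fog-2 than in N2, with a median difference of -0.18. So did 28 of 31 oocyte and eggshell genes (-0.07) and 21 of 24 oxidative phosphorylation genes (-0.11), against 4555 of 8593 genes (53.0%). The trait was not particular to these lists. It was also seen in 21 of 23 giant protein genes (-0.24), 16 of 18 GLD-1 targets (-0.09) and 20 of 25 translation factor genes (-0.10), but only in 19 of 48 chaperone genes (0.02). The list medians in fog-2 and N2 lay within 0.25 of each other for core histones, within 0.17 for cytosolic ribosomal proteins and within 0.04 for the cytoplasmic poly(A) machinery. The gap was 0.37 for the 5 major sperm protein genes and 0.31 for the 3 body-shape collagen genes. ccr-4 had a ratio of -5.97 in fog-2 and -5.82 in N2, let-711 had -5.61 in fog-2 and -5.45 in N2, and gld-4 had -5.47 in fog-2 and -5.49 in N2. For gld-4 the difference was 0.02 ± 0.24 (implied SE) on the log2 scale. At the errors implied by the p-values no single gene passed the adjusted test, which does not show that the genotypes act alike. The differences of lists were not tested.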

How the data were processed

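Whole adult worms were extracted with Trizol, and 12 libraries were made with the TotalScript kit, per the labels' protocols, in 4 groups of 3 by their titles, the 3 of a group being biological replicates per the design text. The series' design text names mRNA but the molecule label names total RNA, and no source used here states a poly(A) selection. The authors used TopHat, Cufflinks 2.1.1 and Cuffdiff, per the submitters' processing notes and the genome build is not stated in the sources used here. The authors deposited, per the file headers, 1 gene table per primer, which holds FPKM per genotype and, for each gene, a p-value, a q-value and the score of the test. FPKM are pooled over the libraries of a group, so depth is unknown and no interval is given. No column of other samples was found (0 unused).

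The ratio was computed with pandas 2.3.3 from genes with status OK in both tables and both fog-2 values above 0, with no pseudocount. Sizes of 2-fold and 4-fold took the place of a test. For the genotype difference, each standard error is the absolute log2 fold over the normal quantile of the deposited p-value, and errors of both primers, which share RNA samples, were taken as independent. A deposited p of 5e-05 is the smallest printed, so the error is then an upper bound. The test was also run on simulated data, drawn with independent normal errors from these same implied standard errors. That run cannot show whether the errors suit the real data. In the real data the difference over its error had a median absolute value 0.641 times the normal one, so the test was strict. RNA classes (97.6% of members) and lengths came from Ensembl 115 for WBcel235 and the RefSeq gene table, whose coordinates differ from the files'. Members alone in their locus were 74.2%. The authors' HIDATA status, with a placeholder of 0 FPKM, kept 1090 genes tested with hexamers out.

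Named genes were fog-2, up to 4 per list (the 2 highest and 2 lowest with at least 5 FPKM with either primer), the 3 most abundant per RNA class, and the 12 highest and 12 lowest public-named genes alone in their locus with at least 10 FPKM. Other names are said to be chosen after their values were seen. The members and the 34 lists were chosen with earlier results of these data known. Alternatives changed the pseudocount, the minimum FPKM, the status rule, the centring, the gene models and the standard error.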

Additional observations from a re-analysis of the deposited data

Results flagged for a closer look

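Outside the genes compared above, 2 piRNA genes were listed with very high FPKM in fog-2 with oligo-dT and at 0 in N2 with oligo-dT and in either genotype with hexamers. The authors' deposited table gives 21ur-7761 at 2032950 FPKM in fog-2 (p = 0.0765 and q = 0.677 by Cuffdiff) and 21ur-9031 at 1717240 FPKM in fog-2 (p = 0.0842 and q = 0.7005 by Cuffdiff). Both gene models are 21 bases long, and neither difference passed the authors' test.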

How the results depend on the processing

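No paired analysis was possible because the deposited columns are pooled over the replicates that the labels number, and for the same reason no replicate could be left out. The 642 genes at least 4-fold lower with oligo-dT (7.45%) became 145 (2.52%) with at least 10 FPKM with both primers, 382 (5.97%) among models alone in their locus, 267 (4.77%) among those that also span the coding region (an alternative chosen after seeing the data), and 1173 (7.77%) with any status other than HIDATA and FAIL. The other alternatives gave 504 to 656. The 20 genes at least 4-fold higher became 4 with 1 FPKM added, 10 and 2 with at least 1 and 10 FPKM with both primers, 11 alone in their locus, 8 with models that also span the coding region, 249 with any such status and 65 without centring. The core histone median stayed between -7.05 and -6.43, with -6.43 after adding 1 FPKM, -6.55 with at least 10 FPKM with both primers (11 genes) and -6.46 without centring. The ribosomal protein median was 1.13 without centring and 0.52 to 0.61 under the other alternatives. A median was taken to have moved when it differed by more than the gap between fog-2 and N2. The genotype difference called 0 genes as reported, 30 with errors from the test statistic and 62 with scaled errors (chosen after seeing the data), and 0 under the other 4 alternatives. Of 155 named genes 81 were at least 2-fold from the median, and none of these changed sign under the 9 alternatives, which gave a value for 37 to 81 of them. Changing the filter or the centring shifts all ratios alike by less than 2-fold, so it could not change these signs. Nothing is read from their staying the same. Among the named genes nearer the median, 12 changed sign without centring and at most 1 under each other alternative. Without centring all 155 ratios rose by the same 0.55, the median that is otherwise subtracted, and 18 moved by over 0.5 with 1 FPKM added. Depth being unknown, low FPKM values are the least certain.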

Other observations

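Leaving aside the 1090 genes tested with hexamers and marked HIDATA with oligo-dT, 90 genes were tested with hexamers alone. Of these 90, 60 were annotated as noncoding RNA, 13 as snoRNA, 2 as snRNA, 3 as miRNA and 6 as protein-coding. Among them the core histone gene his-55 had 0.127 FPKM with oligo-dT against 138 FPKM with hexamers in fog-2, and his-47 had 0.196 FPKM with oligo-dT against 57.3 FPKM with hexamers. With oligo-dT alone, 7721 genes were tested. A further 13 genes were tested with either primer but listed at 0 with oligo-dT in fog-2, and 36 were listed at 0 with hexamers. The yolk protein genes vit-2, vit-5 and vit-6 had no usable oligo-dT value and stood at 7869, 5419 and 9979 FPKM with hexamers in fog-2. The names in this paragraph were chosen after their values were seen.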
